A study of Mus musculus with 12 samples.

Results

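Transcripts of ribosome biogenesis and of RNA polymerase I (Pol I) were examined in CD8+ T cells, the cytotoxic lymphocytes, from the spleens of C57BL/6 mice. The members were all gene symbols of the count files that begin with Nop, Utp, Rrp, Noc or Nol and go on with a number and optional letters, the Pol I subunit genes Polr1a to Polr1e, and a list of 21 named genes such as Fbl, Ncl, Ubtf and Myc. Of 24421 symbols 63 were members, 42 of them by pattern and 21 by name. RNA of a control group given DMSO, the solvent (DMSO, n = 6 libraries), was compared with RNA of a group given an inhibitor of EZH2 (EZH2i, n = 6 libraries), and strain, tissue and cell type were labelled alike in both. EZH2 methylates histone H3 at lysine 27 as the catalytic subunit of Polycomb repressive complex 2, and the mark goes with repressed genes. The name of the inhibitor, its dose, the time of exposure, the age of the mice and whether cells or mice were treated were not given in the sources used here. Libraries are called by group and by the replicate number of their labels, from DMSO 1 to EZH2i 6. Whether each library is from its own mouse or culture is not stated in the labels, and the p-values therefore measure only the spread between these libraries, in part perhaps technical.

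Ribosomes are built in the nucleolus, where Pol I transcribes the precursor of the large ribosomal RNAs (rRNAs). Small nucleolar ribonucleoproteins (snoRNPs) modify this precursor, box C/D particles by methylation and box H/ACA particles by making pseudouridine, while separate sets of factors cut it and assemble it with ribosomal proteins into the small and the large subunit. The transcription factor Myc is known to raise expression of many of these genes, and resting T cells increase ribosome production when they are activated and begin to divide.

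The 12 libraries held 17215483 to 31206228 counts. Markers of CD8+ T cells were abundant, with Cd8a at a mean of 1091 CPM (counts scaled by the TMM-adjusted library total) in DMSO and 885 in EZH2i, and 3 of 6 tested markers fell. Cd4 stood at 0.0887 and 0.0983 CPM, and the erythroid markers Hba-a1, Hbb-bs and Alas2 were at 0 counts. Of 6 B cell markers 2 passed the filter on low counts and neither was called. Of 7 myeloid markers 1 passed it, Itgam, which rose from 1.67 to 7.06 CPM in DMSO to 4.396 to 14.2 CPM in EZH2i (adjusted p = 0.0112), and of 5 dendritic cell markers 1 of 2 tested rose, Itgax, from 0.0595 to 0.994 CPM to 0.774 to 2.87 CPM (adjusted p = 0.00726). The myeloid list summed to 1.73 to 7.32 CPM in DMSO and 4.86 to 14.6 CPM in EZH2i, and the dendritic cell list to 1.86 to 3.73 CPM and 4.03 to 9.01 CPM. Of 4 NK cell markers Eomes and Klrb1c rose. Ncr1 had 14 counts in total over the 12 libraries and was not tested, and Klra8 was at 0 counts. The 4 summed to 45.3 to 120.9 CPM in DMSO and 92.6 to 303.6 CPM in EZH2i. Eomes made up most of that sum, at 44.3 to 119 CPM in DMSO and 88.5 to 294 CPM in EZH2i. The part of these markers in the members' differences was not tested. In bulk RNA, fewer cells of a type and less RNA per cell cannot be told apart.

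For these genes, library 6 of each group departed from its fellows, in DMSO and in EZH2i alike. The members took 1.25% of all counts in DMSO 6 and 1.22% in EZH2i 6, against 0.619% to 0.714% in DMSO 1 to 5 and 0.583% to 0.702% in EZH2i 1 to 5. Of the 61 members that passed the filter on low counts, DMSO 6 was the highest of its group for 55 and EZH2i 6 for 58, against 35.7% and 36.5% of all 11727 tested genes. The median member was 2.13 times the median of the other 5 libraries in DMSO 6 and 2.38 times in EZH2i 6, where the median tested gene was at 0.987 and 0.963. Both libraries lay at opposite ends of the depth range, DMSO 6 with 17215483 counts and EZH2i 6 with 31206228. The summed CD8 T cell markers were lowest of each group in number 6, at 3402 CPM (DMSO 6) and 2420.5 CPM (EZH2i 6). The summed NK cell markers were highest there, at 120.9 and 303.6 CPM, a sum made up mostly of the 1 gene Eomes. The part of these markers in the results was not tested.

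The members differed widely in how far number 6 departed. Spermidine synthase, Srm, showed the widest gap, 6.47 times the median of the other libraries in DMSO and 8.70 times in EZH2i. Polr1b, the second largest Pol I subunit, followed at 4.72 and 7.55 times, and the nucleolar GTP-binding protein Gnl3 at 4.34 and 7.32 times. At the other end stood Utp3 at 1.002 and 0.819 times, Polr1d at 0.950 and 1.18 times, and the chaperone Npm1 at 1.37 and 1.18 times. Members of the same complex did not share a common ratio: among the Pol I subunits, Polr1b was several times higher and Polr1c and Polr1d were near the level of the other libraries. Across the 61 members, the log2 ratios of DMSO 6 and of EZH2i 6 went together (Pearson r = 0.969), as they did across 11661 tested genes (r = 0.825). These are correlations across genes, which are not independent replicates, and all points share the same 12 libraries. The spread between libraries was wider with number 6 than without it. The median SD of log2 expression over members was 0.48 in DMSO and 0.52 in EZH2i with all 6 libraries, and 0.13 and 0.14 without number 6. Over all tested genes it was 0.21 and 0.22 with all 6 libraries, and 0.13 and 0.11 without number 6. Among tested genes with a mean of at least 20 CPM these values were 0.17 and 0.18, and 0.10 and 0.09.

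**Figure D1:**
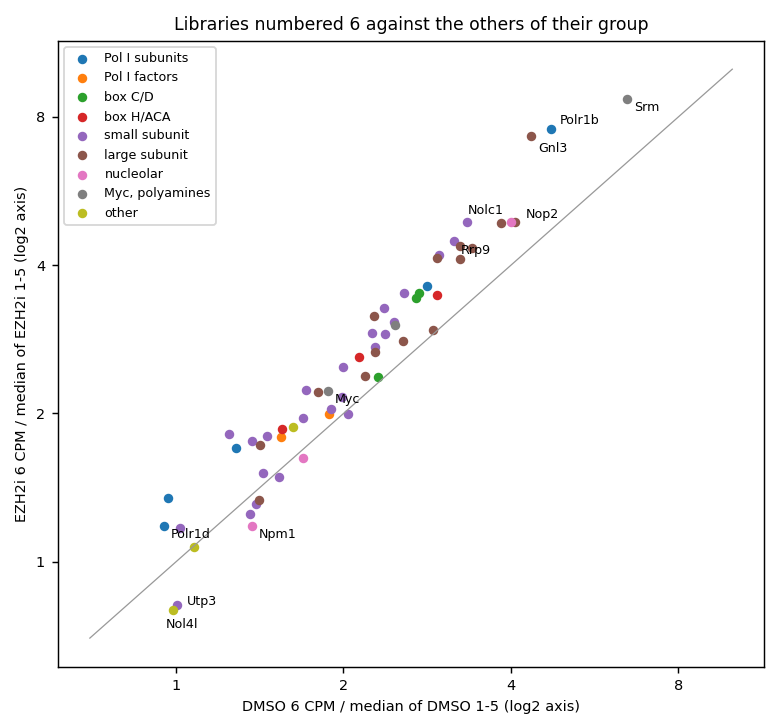
Each point is 1 of the 61 tested members, coloured by role, with the ratio of DMSO 6 to the median of DMSO 1 to 5 on the x axis and that of EZH2i 6 to the median of EZH2i 1 to 5 on the y axis, both log2 axes, and the grey line marks equal ratios. Srm lies at 6.47 and 8.70, most members lie above 1 on both axes, and Utp3, Nol4l and Polr1d lie near or below 1.

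The comparison of EZH2i with DMSO asked whether these transcripts differ when EZH2 is inhibited. With the group alone in the model and all 12 libraries, 1 of 61 members fell, the small subunit factor Utp3, and 1 rose, Nol4l, at an adjusted p under 0.05 in the quasi-likelihood test of edgeR (Benjamini-Hochberg adjustment over all tested genes). Over all 11727 tested genes 6.05% were called lower and 13.3% higher, so few members were called beside the background. At an unadjusted p under 0.05 there were 2 members lower and 1 higher, beside 1545 and 2260 of all 11727 tested genes. The direction was shared: 56 of 61 members had a log2 fold change below 0, against 52.0% of all tested genes, and the median was -0.19 against -0.01 over all tested genes. Among tested genes with a mean of at least 20 CPM, a level that 57 members reached, 65.7% were below 0 and the median was -0.08.

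With the replicate number as a block in the model, so that same-numbered libraries are compared with each other, 43 members fell and 1 rose. In that fit 24.3% of all tested genes were called lower and 24.7% higher, and the members' share called lower was 70.5%. Among genes of at least 20 CPM, 41 of 57 members were called lower with the block (71.9%) against 34.9% of 7046 genes. The median log2 fold change of the members was -0.24 with the block and -0.02 over all tested genes. Without both libraries numbered 6 and with no block, 43 members fell and 1 rose, where 20.0% of all tested genes were called lower and 24.1% higher. Without 1 library of number 6 alone the direction hung on which was removed: the median of the members was 0.08 without DMSO 6, with 26 of 61 below 0, and -0.56 without EZH2i 6, where 28 members fell, as did 15.2% of all tested genes. That same-numbered libraries pair was read from the data, since the labels do not state it, and for number 5 the correlation was near 0 without number 6.

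Counted by libraries, 27 members were lower in EZH2i in 6 of 6 same-numbered pairs, as were 19.2% of all tested genes and 27.3% of those of at least 20 CPM. Over the libraries numbered 1 to 5, 18 members had groups that did not overlap, with every EZH2i library below every DMSO library, as had 11.7% of all tested genes and 17.1% of those of at least 20 CPM. Over all 12 libraries no member had such groups. The size of the difference was not the same in each pair. The median member differed by -0.24, -0.35, -0.42, -0.23 and -0.18 on the log2 (CPM + 0.5) scale in numbers 1 to 5, and by -0.04 in number 6. Members lower in EZH2i numbered 52, 58, 59, 54 and 51 of 61 in numbers 1 to 5, and 37 of 61 in number 6. Among genes of at least 20 CPM the share lower was 59.9% to 62.9% in numbers 1 to 5 and 64.0% in number 6, beside 60.7% of the members in number 6. The median of all tested genes lay within -0.02 to 0.01 in every pair, and that of genes of at least 20 CPM within -0.09 to -0.05, at -0.09 in number 6.

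**Figure D2:**
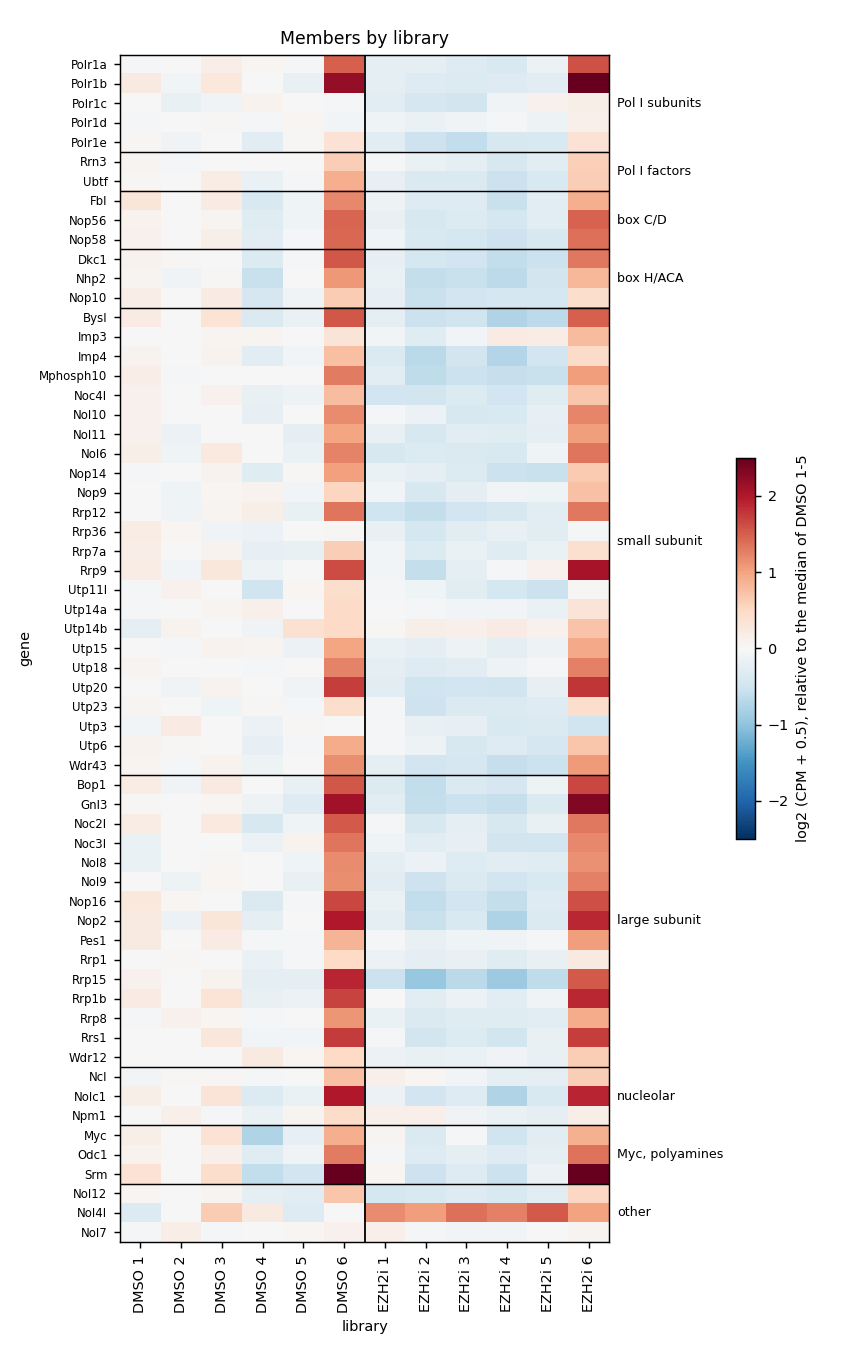
Rows are the 61 tested members grouped by role and columns the 12 libraries; colour gives log2 (CPM + 0.5) relative to the median of DMSO 1 to 5, and values past the ends of the scale take its end colour. Number 6 is red in both groups for most members, and EZH2i 1 to 5 are mostly pale blue.

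**Figure D3:**
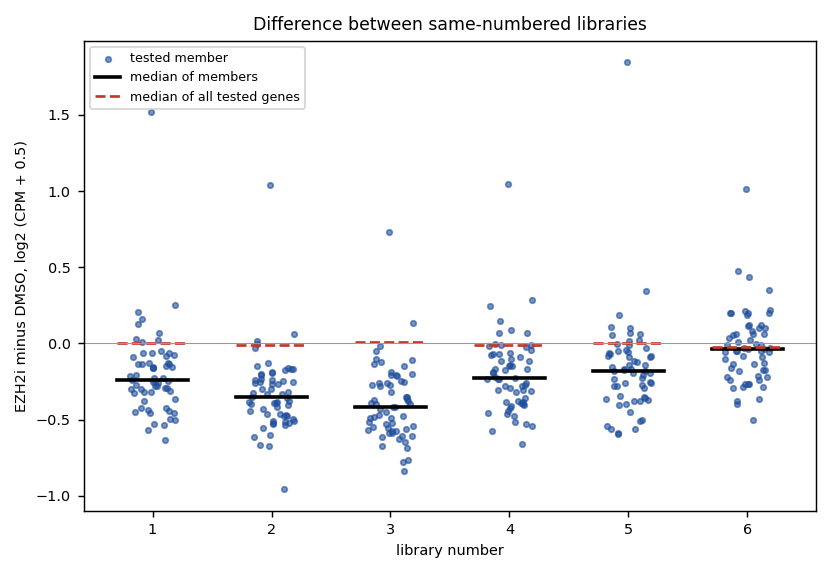
Each point is a tested member, with the library number on the x axis and the EZH2i minus DMSO difference in log2 (CPM + 0.5) on the y axis; black bars are medians of members and dashed red bars medians of all tested genes. The median of members is -0.42 in number 3 and -0.04 in number 6, and the single high point in each column is Nol4l.

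**Figure D4:**
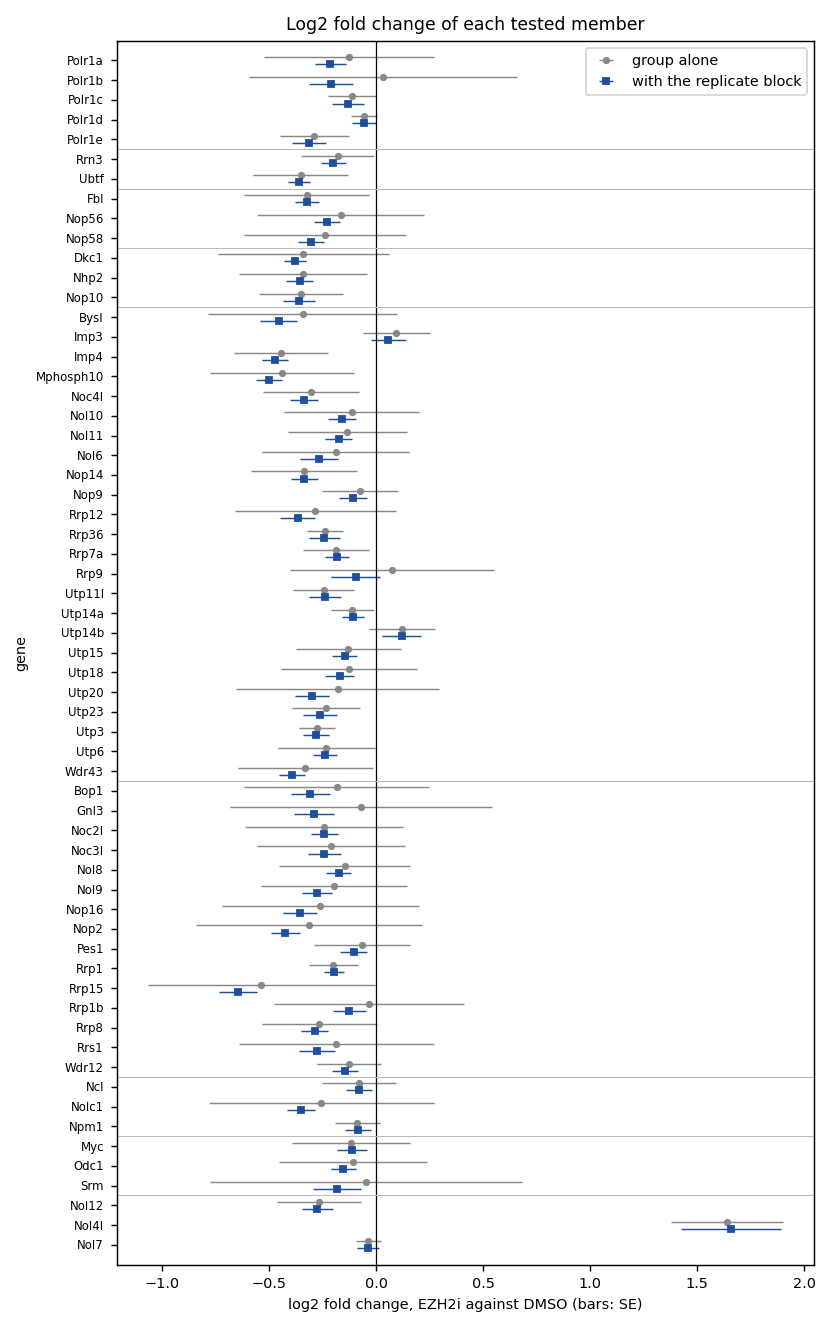
Log2 fold change of each tested member (x axis, EZH2i against DMSO; genes on the y axis, grouped by role) with its SE, in grey with the group alone in the model and in blue with the replicate block. The SE is several times smaller with the block for members such as Srm and Polr1b, whose estimates moved from -0.05 to -0.18 and from 0.03 to -0.21.

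The 5 Pol I subunits of the membership rule were all tested. None was called with the group alone or had an unadjusted p under 0.05 there. DESeq2 called none either, but it gave no adjusted p for Polr1b. Polr1a, the largest and catalytic subunit (chromosome 6 from 71909053 to 71984935, build GRCm38), ran from 39.1 through a median of 41.4 to 115 CPM in DMSO and from 31.3 through 34.6 to 124 CPM in EZH2i. Number 6 was by far the highest in both groups, and without it the DMSO libraries at 39.1 to 45.7 CPM and the EZH2i libraries at 31.3 to 36.8 CPM did not overlap. Its log2 fold change was -0.13 with the group alone (SE 0.40, adjusted p = 0.861), -0.21 with the block (SE 0.07, adjusted p = 0.0228) and -0.28 without number 6 (adjusted p = 0.00278). Within number 6 the difference had the other sign, 0.11 on the log2 scale.

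Polr1b (chromosome 2 from 129100995 to 129126594), which pairs with Polr1a to form the active centre, ran from 13.5 through 16.6 to 72.5 CPM in DMSO and from 11.9 through 12.5 to 92.3 CPM in EZH2i. The other 5 libraries lay at 13.5 to 18.5 CPM in DMSO and at 11.9 to 12.9 CPM in EZH2i, without overlap, and number 6 was higher in EZH2i than in DMSO. The log2 fold change was 0.03 with the group alone (SE 0.63, adjusted p = 0.982), -0.21 with the block (SE 0.10, adjusted p = 0.1003) and -0.35 without number 6 (adjusted p = 0.00443), so its sign changed with the number 6 libraries. Polr1e (chromosome 4 from 45018583 to 45036565), the PAF53 subunit, ran from 24.4 through 30.0 to 38.2 CPM in DMSO and from 19.3 through 22.6 to 38.4 CPM in EZH2i. It had the smallest p of the subunits with the group alone (log2 fold change -0.29, adjusted p = 0.238) and fell with the block (-0.32, SE 0.08, adjusted p = 0.00372). Polr1c and Polr1d, which Pol I shares with RNA polymerase III, were not called in either fit, and the blocked estimates were -0.13 for Polr1c (adjusted p = 0.165) and -0.06 for Polr1d (adjusted p = 0.403). With the block 2 of 5 subunits fell (40%), beside 24.3% of all tested genes and 34.9% of those of at least 20 CPM. Without number 6 it was 3 (60%), beside 20.0% and 28.6%. All 5 subunits were lower in EZH2i in numbers 1 to 4, 4 of 5 in number 5 and 0 of 5 in number 6.

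Both initiation factors of Pol I were lower in EZH2i in 6 of 6 same-numbered pairs. So were 19.2% of all tested genes and 27.3% of those of at least 20 CPM. Ubtf, the factor UBF that binds along the rRNA genes (chromosome 11 from 102304560 to 102319742), ran from 153 through 174 to 323 CPM in DMSO and from 119 through 133 to 264 CPM in EZH2i. The highest library was number 6 in each group, and the others lay at 153 to 196 CPM in DMSO and 119 to 149 CPM in EZH2i, without overlap. Ubtf had a log2 fold change of -0.35 with the group alone (SE 0.22, adjusted p = 0.300) and fell with the block (-0.36, SE 0.05, adjusted p = 3.13e-05) and without number 6 (-0.37, adjusted p = 0.000398). Rrn3, the factor TIF-IA that brings Pol I to its promoter (chromosome 16 from 13780708 to 13814839), ran from 50 through 51.7 to 79.3 CPM in DMSO and from 39.0 through 44.6 to 77.6 CPM in EZH2i. Without number 6 its highest EZH2i library, at 49.4 CPM, lay just under its lowest DMSO library, at 50 CPM. Rrn3 fell with the block (log2 fold change -0.20, SE 0.06, adjusted p = 0.00963) and was not called with the group alone (-0.18, adjusted p = 0.514).

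**Figure D5:**
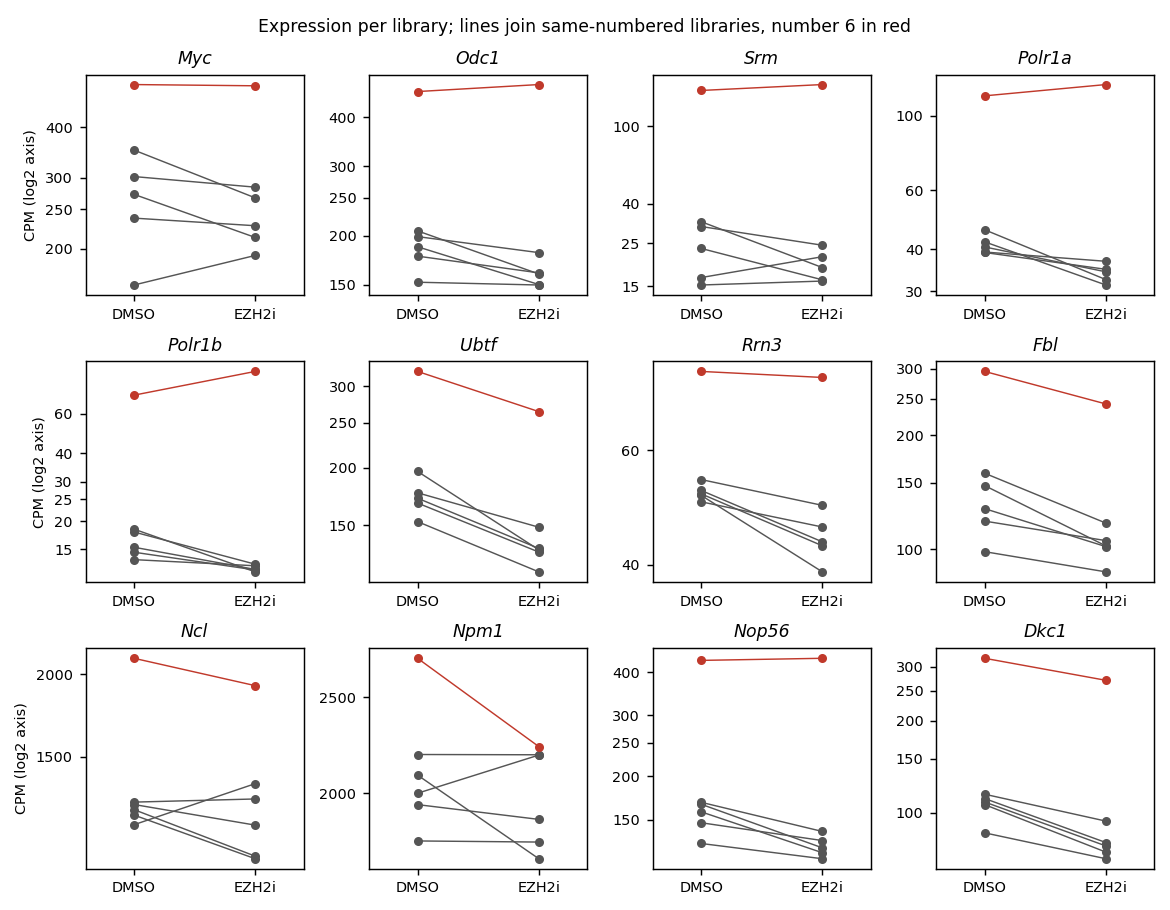
CPM (log2 axis) of 12 members in DMSO and EZH2i; each point is a library, lines join same-numbered libraries, and number 6 is red. The red points lie above the grey ones in both groups, with the narrowest gap for Npm1, and most grey lines for Ubtf, Rrn3, Fbl, Nop56 and Dkc1 slope down.

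Of the core proteins of the snoRNPs, 6 were members, 3 of the box C/D and 3 of the box H/ACA particles. Each of these 6 fell with the block, as did 24.3% of all tested genes and 34.9% of those of at least 20 CPM. The remaining core proteins, Nhp2l1 of box C/D (-0.25, adjusted p = 0.00379) and Gar1 of box H/ACA (-0.29, adjusted p = 0.0110), lie outside the membership rule and fell with the block too. Fbl, fibrillarin, the methyltransferase of the box C/D particles (chromosome 7 from 28169710 to 28179269), ran from 98.5 through 138 to 295 CPM in DMSO and from 87.1 through 104 to 242 CPM in EZH2i. Its groups overlapped, also without number 6, yet EZH2i was lower in 6 of 6 pairs. Fbl had a log2 fold change of -0.32 in both fits, with an adjusted p of 0.495 (SE 0.29) with the group alone and 0.000204 (SE 0.06) with the block. Nop56, a scaffold protein of the same particle (chromosome 2 from 130274430 to 130279313), ran from 128 through 162 to 432 CPM in DMSO and from 116 through 128 to 438 CPM in EZH2i. It was lower in 5 of 6 pairs, number 6 being the exception, and fell with the block (-0.23, SE 0.06, adjusted p = 0.00443). Its partner Nop58 fell likewise (-0.30, adjusted p = 0.000752).

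Dkc1, dyskerin, the pseudouridine synthase of the box H/ACA particles and a part of telomerase (chromosome X from 75095854 to 75109777), ran from 85.9 through 109.8 to 320 CPM in DMSO and from 70.7 through 78.9 to 271 CPM in EZH2i. Number 6 stood far above the rest in each group, and EZH2i was lower in 6 of 6 pairs. Dkc1 had a log2 fold change of -0.34 with the group alone (SE 0.40, adjusted p = 0.611), and fell with the block (-0.38, SE 0.05, adjusted p = 3.09e-05) and without number 6 (-0.40, adjusted p = 0.000936). Nop10 (chromosome 2 from 112261926 to 112263269), the smallest core protein of the particle, had the smallest p among these proteins with the group alone, with 39.4 through 56.5 to 82.6 CPM in DMSO and 36.1 through 39.1 to 72.7 CPM in EZH2i (log2 fold change -0.35, adjusted p = 0.240). It fell with the block (-0.36, SE 0.07, adjusted p = 0.000957), as did the RNA-binding Nhp2 (-0.36, adjusted p = 0.000281).

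Factors of the small subunit made up the largest role, with 24 tested members. Of these 18 fell with the block, 16 without number 6 and 1, Utp3, with the group alone. The shares were 75.0%, 66.7% and 4.17%. Beside them stood 24.3%, 20.0% and 6.05% of all tested genes, and 34.9%, 28.6% and 8.79% of those of at least 20 CPM. Utp3, the processome factor Sas10 (chromosome 5 from 88554462 to 88556090), ran from 120.1 through 133 to 153 CPM in DMSO and from 94.0 through 109 to 129 CPM in EZH2i. Unlike most members it was not high in number 6: EZH2i 6 was the lowest library of its group, the groups overlapped, and EZH2i was lower in 5 of 6 pairs. Utp3 fell with the group alone (log2 fold change -0.28, SE 0.08, adjusted p = 0.0332) and with the block (-0.28, SE 0.06, adjusted p = 0.00148), and the call was lost with upper-quartile scaling (-0.22, adjusted p = 0.0935) and in 5 of the 12 fits that left 1 library out (without DMSO 2, DMSO 5, EZH2i 3, EZH2i 4 or EZH2i 5, adjusted p = 0.0532 to 0.0772).

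Among the small subunit factors, the largest falls with the block were those of Mphosph10 (log2 fold change -0.50, adjusted p = 8.38e-06) and Imp4 (-0.47, adjusted p = 1.09e-05), proteins that bind each other and the U3 snoRNA, which guides the first cuts of the rRNA precursor. Mphosph10 ran from 38.0 through 38.7 to 95.2 CPM in DMSO and from 24.6 through 26.2 to 80.4 CPM in EZH2i, and without number 6 its groups did not overlap. Imp3, which joins the same complex, was not called: it ran from 39.4 through 40.5 to 49.3 CPM in DMSO and from 31.8 through 41.5 to 68.8 CPM in EZH2i, with a log2 fold change of 0.06 with the block (adjusted p = 0.596). Bysl, a factor of late small subunit maturation, fell with the block (-0.46, adjusted p = 0.000435), as did the processome protein Wdr43 (-0.39, adjusted p = 6.29e-05) and the export factor Rrp12 (-0.37, adjusted p = 0.00155). The other members that fell with the block were Utp20, Utp15, Utp23, Utp18, Utp6, Utp11l, Rrp7a, Rrp36, Noc4l, Nop14, Nol6 and Nol11, with log2 fold changes of -0.34 to -0.15. Those that did not pass with the block were Utp14a, Utp14b, Rrp9, Nol10, Nop9 and Imp3. Utp14b, a retrogene copy of Utp14a, and Imp3 were those with positive estimates there, at 0.12 (adjusted p = 0.303) and 0.06.

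Of 15 tested factors of the large subunit 12 fell with the block (80.0%), 13 without number 6 (86.7%) and none with the group alone. Beside them stood 24.3%, 20.0% and 6.05% of all tested genes, and 34.9%, 28.6% and 8.79% of those of at least 20 CPM. With the group alone none passed an unadjusted p under 0.05. All 15 had estimates below 0 there, as had 52.0% of all tested genes and 65.7% of those of at least 20 CPM. Rrp1 (chromosome 10 from 78400384 to 78413043), which had the smallest p of these with the group alone, ran from 147 through 165 to 231 CPM in DMSO and from 133 through 144 to 192 CPM in EZH2i (log2 fold change -0.20, adjusted p = 0.260). In the blocked fit it fell by 0.20 (SE 0.05, adjusted p = 0.00272). EZH2i was lower in 6 of 6 pairs, and number 6 was the highest in each group. Rrp15 had the largest fall of all members with the block (-0.64, SE 0.09, adjusted p = 2.36e-05), with 11.7 through 14.5 to 53.8 CPM in DMSO and 6.97 through 8.70 to 41.7 CPM in EZH2i. Its groups did not overlap without number 6, and EZH2i was lower in 6 of 6 pairs. Nop2, an rRNA methyltransferase also known as a proliferation antigen, fell with the block (-0.42, adjusted p = 0.000104), as did Nop16 (-0.36, adjusted p = 0.00171) and the GTP-binding nucleostemin Gnl3 (-0.29, adjusted p = 0.0178). The PeBoW complex, which joins Pes1, Bop1 and Wdr12, was not uniform: Bop1 fell with the block (-0.31, adjusted p = 0.0100), and Pes1 (-0.11, adjusted p = 0.187) and Wdr12 (-0.15, adjusted p = 0.0573) were not called. The remaining falls with the block, in Noc2l, Noc3l, Nol8, Nol9, Rrp8 and Rrs1, were of -0.29 to -0.18, and Rrp1b was not called (-0.13, adjusted p = 0.187).

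The abundant nucleolar proteins split. Ncl, nucleolin, which binds rRNA genes and precursors (chromosome 1 from 86344719 to 86359400), ran from 1186 through 1260.5 to 2113 CPM in DMSO and from 1053 through 1240.1 to 1921 CPM in EZH2i. Npm1, a histone and ribosome chaperone (chromosome 11 from 33152287 to 33163206), ran from 1790 through 2043 to 2736 CPM in DMSO and from 1717 through 2033 to 2229 CPM in EZH2i. Their groups overlapped with and without number 6, and neither was called with the group alone, with the block or without number 6. With the block, Ncl had a log2 fold change of -0.08 (SE 0.06, adjusted p = 0.296) and Npm1 one of -0.08 (SE 0.06, adjusted p = 0.273). Nolc1, a chaperone of snoRNPs, fell with the block (-0.35, adjusted p = 0.000436) and was lower in 6 of 6 pairs, with 53.2 to 271 CPM in DMSO and 40.1 to 255 CPM in EZH2i.

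Myc itself (chromosome 15 from 61985391 to 61990374) ran from 162 through 287 to 511 CPM in DMSO and from 192 through 247 to 507 CPM in EZH2i. DMSO 1 to 5 alone spanned 162 to 351 CPM, DMSO 4 being the lowest library of all 12, and the groups overlapped. Myc was not called, with log2 fold changes of -0.12 with the group alone (SE 0.28, adjusted p = 0.809), -0.11 with the block (SE 0.07, adjusted p = 0.201) and -0.15 without number 6 (adjusted p = 0.432). Odc1, ornithine decarboxylase, the first enzyme of polyamine synthesis and a known Myc target (chromosome 12 from 17544794 to 17551505), ran from 152 through 193 to 465 CPM in DMSO and from 150.0 through 160 to 484 CPM in EZH2i. It fell with the block (-0.15, SE 0.06, adjusted p = 0.0398), was lower in 5 of 6 pairs and was not called with the group alone (-0.11, adjusted p = 0.865). Srm, which makes spermidine (chromosome 4 from 148591503 to 148594993), ran from 15.3 through 27.0 to 152 CPM in DMSO and from 15.995 through 20.05 to 163 CPM in EZH2i. Srm was lower in 3 of 6 pairs and was not called, with log2 fold changes of -0.05 with the group alone (SE 0.73, adjusted p = 0.975) and -0.18 with the block (SE 0.11, adjusted p = 0.189).

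Promoters of members were searched for CACGTG, the E-box that Myc and its partner Max bind, which reads the same on both strands. RefSeq promoters on build GRCm38.p6, 250 bases before to 50 after the start, were matched for 50 of the 63 members, and 10 of these (20.0%) held it, against 11.9% of 9418 tested genes and 8.09% of all 27025 genes with a window. By windows, of which a gene can have several, it was in 10 of 63 (15.9%) for members, in 1201 of 11983 (10%) for tested genes and in 7.15% of all. The genes with a match were Imp4, Nol11, Nop2, Pes1, Rrn3, Rrp7a, Utp14b, Utp18, Utp20 and Wdr43. A match is a description and not a shown binding site, and of the 10 genes Pes1 and Utp14b were not called with the block. Myc, Srm, Fbl and Npm1 had no window to search. Of the other members plotted by library, Rrn3 alone had a match, and its window held it at 215 and at 48 bases before the start. It is shown with Imp4 (121 bases before) and Nop2 (60 bases before), which fell with the block and were picked for display after their values were seen. The lines give the 250 bases before the start, 5′ to 3′ on the gene's strand, with CACGTG in capitals.
Rrn3 (chr16:13780449-13780698, plus strand): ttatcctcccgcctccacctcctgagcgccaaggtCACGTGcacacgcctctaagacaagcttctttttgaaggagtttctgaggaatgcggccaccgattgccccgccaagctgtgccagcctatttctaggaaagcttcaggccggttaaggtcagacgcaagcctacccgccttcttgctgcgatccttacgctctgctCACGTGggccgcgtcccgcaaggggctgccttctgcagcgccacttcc
Imp4 (chr1:34439579-34439828, plus strand): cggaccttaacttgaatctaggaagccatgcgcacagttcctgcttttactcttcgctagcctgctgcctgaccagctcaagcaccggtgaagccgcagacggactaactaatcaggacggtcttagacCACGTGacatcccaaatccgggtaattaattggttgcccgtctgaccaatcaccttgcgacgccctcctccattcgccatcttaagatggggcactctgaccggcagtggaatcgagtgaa
Nop2 (chr6:125131633-125131882, plus strand): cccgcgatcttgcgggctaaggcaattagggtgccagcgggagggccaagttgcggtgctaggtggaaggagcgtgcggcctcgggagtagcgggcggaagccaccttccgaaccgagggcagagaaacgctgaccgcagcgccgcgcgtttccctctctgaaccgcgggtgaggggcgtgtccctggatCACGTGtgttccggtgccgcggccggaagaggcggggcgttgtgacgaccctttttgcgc

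A few genes matched the name pattern and fit none of these roles. Nol4l (chromosome 2 from 153407462 to 153529971), named for its likeness to Nol4, was the single member that rose, from 0.416 through 0.659 to 1.31 CPM in DMSO to 1.83 through 2.21 to 2.85 CPM in EZH2i. Its groups did not overlap over all 12 libraries, and number 6 did not stand out. The log2 fold change was 1.64 with the group alone (SE 0.26, adjusted p = 0.00069) and 1.66 with the block (adjusted p = 3.24e-05), at a low level of expression. Nol3, a repressor of apoptosis, stood under 1 CPM in each library and did not pass the filter on low counts, and Nol4 was at 0 counts in all 12 libraries. Nol12, an RNA-binding protein, fell with the block (-0.28, adjusted p = 0.00479), and Nol7 was not called, with 89.1 to 103 CPM in DMSO and 87.7 to 101 CPM in EZH2i.

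Further ribosome biogenesis factors, outside the membership rule, were counted in the same way. Of 68 such factors, all tested, 1 fell with the group alone, the helicase Ddx49, and 50 fell with the block (73.5%), while 0 rose in either fit. Their median log2 fold change was -0.21 with the group alone, and DMSO 6 and EZH2i 6 stood at 1.97 and 2.34 times the other libraries in the median. At an unadjusted p under 0.05 there were 4 lower and 0 higher with the group alone, beside 1545 and 2260 of all 11727 tested genes. DESeq2 called 0 higher. Ddx49 ran from 50.7 to 66.0 CPM in DMSO and from 38.1 to 56.3 CPM in EZH2i, near the threshold (log2 fold change -0.30, adjusted p = 0.0499). A further Pol I list held subunits and factors outside the rule, some of them under older symbols. Of its 14 tested genes 0 were called with the group alone, and 6 fell with the block. At an unadjusted p under 0.05 there were 2 lower and 0 higher with the group alone. The 14 included Cd3eap, a Pol I subunit (-0.67 with the block, adjusted p = 4.98e-05). Of 14 subunits and cofactors of the RNA exosome, which trims rRNA precursors, 2 fell with the group alone, Exosc8 (-0.38, adjusted p = 0.00504) and C1d (-0.37, adjusted p = 0.00453), and 9 fell with the block. Of 21 genes of RNA polymerase III, which makes 5S rRNA and tRNAs, 1 fell with the group alone, Polr3g (-0.64, adjusted p = 0.0244), and with the block 8 fell and 1 rose, Polr3gl (0.24, adjusted p = 0.0158), the paralogue of Polr3g. With the block the shares that fell were 42.9% of the further Pol I list, 64.3% of the exosome list and 38.1% of the RNA polymerase III list. Beside them stood 24.3% of all tested genes and 34.9% of those of at least 20 CPM. With the group alone 14.3% of the exosome list and 4.76% of the RNA polymerase III list fell, beside 6.05% of all tested genes.

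The genes of the ribosomal proteins themselves were mostly not called. Of 82 tested ribosomal protein genes 1 rose, Rpl13 (log2 fold change 0.37, adjusted p = 0.0178), and 0 fell, with the group alone and with the block. At an unadjusted p under 0.05 the counts with the group alone were again 1 higher and 0 lower, beside 2260 and 1545 of all 11727 tested genes. The median log2 fold change of the ribosomal protein genes was 0.04. In number 6 their median stood at 0.859 times the other libraries in DMSO and at 1.02 times in EZH2i. Genes of this class have near-identical processed copies in the genome, so their counts are uncertain. Of 10 tested partners and antagonists of Myc 1 rose, Mxd1, which competes with Myc for Max, from 29.1 through 39.0 to 42.4 CPM in DMSO to 37.5 through 70.9 to 75.5 CPM in EZH2i (log2 fold change 0.79, adjusted p = 0.00271). EZH2i was higher in 6 of 6 pairs, and EZH2i 6 was the lowest of its group and lay within the DMSO range. A share of 10% lies near the 13.3% of all tested genes that rose. With the block 3 rose, Mxd1, Mxd4 and Mycn, and 3 fell, Mlx, Mxd3 and Max (-0.28, adjusted p = 0.00082), the partner of Myc, which was not called with the group alone (adjusted p = 0.304). Each count is 30% of the list, beside 24.7% of all tested genes that rose and 24.3% that fell with the block. Of 9 tested genes of polyamine metabolism 1 rose (11.1%, also near 13.3%), spermine oxidase Smox (0.94, adjusted p = 0.000769), which breaks spermine down and was higher in 6 of 6 pairs. With the block 2 of the 9 rose (22.2%), Smox and Oaz2, and 4 fell (44.4%), Sms, Azin1, Dohh and Eif5a. The median of the 9 with the group alone was -0.15. Of 16 genes of the mTORC1 pathway, which promotes ribosome production, 2 rose in both fits (12.5%, near the 13.3% of all tested genes with the group alone), Ddit4 (1.001, adjusted p = 0.000122) and Sesn2 (0.57, adjusted p = 0.0295), which are known to restrain the pathway. With the block 1 fell, Eif4ebp2 (-0.16, adjusted p = 0.0105). Ddit4 ran from 88.7 to 142 CPM in DMSO and from 173 to 241 CPM in EZH2i, without overlap.

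Some members share sequence with other genes, and the handling of strand and of reads with several hits is not given in the sources used here. Of the 75-base windows of their transcripts, 18.1% were shared with other genes for Npm1, 17.7% for Fbl, 16.6% for Odc1, 14.4% for Nop56 and 12.4% for Pes1. The share was 18.3% for Noc2l and 26.7% for Nop9, whose main overlapping genes, Samd11 and Cideb, lie on the opposite strand. The counts of these genes are uncertain to that extent. Utp14a and Utp14b shared no such window with each other.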

How the data were processed

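RNA of 12 libraries was measured by sequencing of polyadenylated transcripts (stranded TruSeq mRNA kit, 75-base single-end reads, per the labels' protocols). The authors deposited raw counts of reads per gene symbol, with 1 table a library. Per the submitters' processing notes reads were handled with Trimmomatic 0.38 and FastQC 0.11.7, TopHat2 2.1.1 with SAMtools 1.9, and featureCounts, on build GRCm38; annotation, strand setting and the handling of reads with several hits were not given in the sources used here. From the counts, genes were kept with filterByExpr of edgeR 4.0.16 (R 4.3.3) at its defaults, leaving 11727. Scaling was by TMM. Groups were compared with the two-sided quasi-likelihood test on a model with the group alone, with Benjamini-Hochberg adjustment over all genes kept; a gene was called at an adjusted p under 0.05. The SE is the log2 fold change divided by the square root of F. Fits without libraries kept these 11727 genes. DESeq2 1.42.0, other scalings, no filter, the replicate block and fits without libraries were alternatives. The block without number 6 was chosen after seeing the data. Same-numbered libraries deviated together (r of 0.263, 0.527, 0.354, 0.582, 0.360 and 0.883 for numbers 1 to 6, all over 0.1), so the numbers were taken to pair them. The deviations were from group means that held number 6, which can raise r between any of the other libraries, so passing 0.1 says little about pairing. Without number 6, r was 0.272, 0.224, 0.202, 0.399 and 0.000681 for numbers 1 to 5, and number 5 did not pass 0.1. The pairing comes from the data, and 4 of 6 correlated best with their own number. No 2 replicates agreed within sampling noise (chi-square per degree of freedom at least 4.89). Gene positions are those of GENCODE M21. Full values are given for 12 set genes, the called or smallest-p member of each role and the called members; other members were named by role or by size with the block, after their values were seen. The test was checked on simulated counts drawn independently for each library. They held no shift of number 6 and no pairing, so the check does not bear on either. The members, lists and tests were chosen with earlier results of these data known.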

Additional observations from a re-analysis of the deposited data

Results flagged for a closer look

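Among the members given in full, 25 values stood apart from the other 5 libraries of their group by Dixon's criterion (the gap to the nearest library as a share of the group's range), all of them high and all in number 6. In DMSO 6 these were Ncl at 2113 CPM, Odc1 at 465 CPM, Nop56 at 432.2 CPM, Ubtf at 323.0 CPM, Dkc1 at 319.6 CPM, Fbl at 294.8 CPM, Rrp1 at 230.7 CPM, Srm at 152.3 CPM, Polr1a at 114.9 CPM, Rrn3 at 79.31 CPM and Polr1b at 72.47 CPM. In EZH2i 6 they were Ncl at 1921 CPM, Myc at 506.9 CPM, Odc1 at 484.5 CPM, Nop56 at 438.3 CPM, Dkc1 at 270.8 CPM, Ubtf at 264.4 CPM, Fbl at 241.9 CPM, Rrp1 at 191.8 CPM, Srm at 163.4 CPM, Polr1a at 124.1 CPM, Polr1b at 92.34 CPM, Rrn3 at 77.64 CPM, Nop10 at 72.68 CPM and Polr1e at 38.42 CPM. Over all members, 98 of 124 groups with a range above 0 stood so (79.0%), 47 through DMSO 6, 51 through EZH2i 6 and 0 through any other library, and 45 members did in both groups. Chance gives about 5% of groups, but over all tested genes 29.3% of groups stood so, and 16.4% through a high value in number 6, which was 18.4% among genes of at least 20 CPM. The labels do not say what number 6 stands for, so the number and these libraries cannot be told apart.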

How the results depend on the processing

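The count of members that fell, 1 with the group alone, was 43 with the replicate block, 43 without both libraries numbered 6, 50 with both changes, 2 with DESeq2 (Utp3 and Rrp36) and 0 with upper-quartile scaling, and 0 to 28 when 1 library at a time was left out, the highest without EZH2i 6. The share of all genes called lower moved too: it was 6.05% with the group alone, 24.3% with the block, 20.0% without both number 6 libraries, 23.3% with both changes, 8.01% with DESeq2, 2.96% with upper-quartile scaling and 15.2% without EZH2i 6. The count that rose was 2 with DESeq2 and 2 with no filter, where Nol3 joined Nol4l. For the 68 biogenesis factors outside the rule, the count that fell was 50 with the replicate block, 48 without both number 6 libraries, 52 with both changes, 2 with DESeq2 (Ddx49 and Tsr3), 0 with upper-quartile scaling, with median-of-ratios scaling and with no filter, and 0 to 40 when 1 library at a time was left out, again highest without EZH2i 6. Of single members, Polr1b changed sign to -0.21 on the log2 scale with the block, -0.35 without both number 6 libraries and -0.35 with both changes, and Srm to 0.019 with upper-quartile scaling. With 1 library left out at a time, the log2 fold change ranged from -1.02 to 0.69 for Polr1b, from -1.21 to 0.88 for Srm, from -0.66 to 0.25 for Polr1a, from -0.53 to 0.22 for Odc1, from -0.67 to 0.21 for Nop56, from -0.83 to 0.080 for Dkc1, from -0.37 to 0.089 for Myc and from -0.22 to 0.080 for Ncl. For each of these genes the highest value was without DMSO 6 and the lowest without EZH2i 6. With the block, 10 of the 17 members given in full passed the threshold that they had missed, and Nol4l and Utp3 kept their calls; the cause was not tested. Upper-quartile scaling moved the median of all genes from -0.01 to 0.05 on the log2 scale. DESeq2 gave an adjusted p for 15 of the 17. The counts of calls with the block rest on a pairing that the labels do not state.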

Other observations

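Genes of proliferation and of the control of rRNA genes were read beside the members. Of 14 tested proliferation genes 4 fell with the group alone, Tyms (log2 fold change -0.58, adjusted p = 4.28e-05), which makes thymidylate, Pcna (-0.39, adjusted p = 0.0019), the sliding clamp of replication, the helicase subunit Mcm5 (-0.32, adjusted p = 0.00601) and the ribonucleotide reductase subunit Rrm2 (-0.30, adjusted p = 0.00958), and 10 fell with the block. Those counts were 28.6% and 71.4% of the list, beside 6.05% and 24.3% of all tested genes. The median proliferation gene stood at 0.891 times the other libraries in DMSO 6 and at 0.943 times in EZH2i 6. Tyms ran from 87.9 to 105 CPM in DMSO and from 59.3 to 70.6 CPM in EZH2i, without overlap. A list of 9 genes linked to the control of rRNA genes or to inhibition of the nucleolus held the member Rrp8. Of these 9 genes 1 rose with the group alone (11.1%, beside 13.3% of all tested genes), Cdkn2a, whose product Arf binds Npm1. Cdkn2a had 0.323 to 1.49 CPM in DMSO and 9.46 to 24.6 CPM in EZH2i (log2 fold change 4.36, adjusted p = 3.37e-06). Its count does not separate Arf from p16. With the block 3 of the 9 rose, Cdkn2a and the demethylases Kdm2b (0.37, adjusted p = 4.63e-05) and Phf2 (0.20, adjusted p = 0.00301), and 1 fell, Rrp8. Those shares, 33.3% and 11.1%, stood beside 24.7% and 24.3% of all tested genes. Kdm2b was not called with the group alone (adjusted p = 0.0803), and Baz2a, the core of the silencing complex NoRC, was not called (log2 fold change 0.04, adjusted p = 0.863).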
